A study of Mus musculus with 20 samples.

Results

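The circadian clock was followed through 10 transcripts in microglia, which are the macrophages resident in brain tissue: the E-box repressors Bhlhe40 and Bhlhe41, the nuclear receptors Nr1d1 and Nr1d2, the period and cryptochrome genes Per1, Per2 and Cry1, the activators Arntl and Clock, and the output factor Dbp. They are 10 of 19751 genes that had a probe set annotated to 1 gene, and all 10 were among the 12728 genes tested. They were chosen as clock repressors and activators, and Bhlhe40 and Nr1d1 were chosen by their log2 differences with Trem2 genotype in these arrays. Values of the 10 genes between Trem2 genotypes are therefore a description and carry no test. The mice were 8.5 months old and of 4 genotypes. Trem2-/-5XFAD mice (6 arrays) lack the lipid-sensing receptor Trem2 and carry the 5XFAD transgenes, mutant human amyloid precursor protein and presenilin genes driven by a neuronal promoter that lead to amyloid plaques. 5XFAD mice (5 arrays) carry the transgenes and have Trem2. Trem2-/- mice (4 arrays) lack Trem2 and have no transgene, and WT mice (4 arrays) have Trem2 and no transgene. All groups were littermates whose brains were taken after saline perfusion and whose microglia were isolated by flow sorting. The sources used here give no hour of tissue collection, no sex and no sorting gate. In bulk RNA of sorted cells, fewer cells of a type and less RNA per cell cannot be told apart.

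The mammalian clock is a transcriptional loop. CLOCK and ARNTL (BMAL1) activate genes through E-box motifs, among them the period and cryptochrome genes, whose proteins return to block that activation. BHLHE40 and BHLHE41 compete for E-boxes and repress the same targets. The nuclear receptors NR1D1 and NR1D2 (REV-ERB alpha and beta) repress Arntl and Nfil3 through ROR elements. DBP, TEF and HLF activate, and NFIL3 represses, a further set of genes through D-box motifs. In macrophages and microglia, NR1D1 is known to restrain inflammatory genes, and Bhlhe40 is known both as a clock repressor and as a gene raised by low oxygen.

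The 250 bases before the annotated start are shown for 4 of these genes, the paired receptors Nr1d1 and Nr1d2 that varied together across arrays, and Nfil3 and Tef, a repressor and an activator of D-boxes whose levels moved in opposite directions below. Sequences and coordinates are from RefSeq on GRCm38.p6, read 5′ to 3′ on the gene's strand. Capitals mark matches on either strand to an E-box (CACGTG), an E-box-like motif (CACGTT or its complement AACGTG) or a ROR half-site (AGGTCA or its complement TGACCT).
Nr1d1, chr11:98775378-98775627, minus strand: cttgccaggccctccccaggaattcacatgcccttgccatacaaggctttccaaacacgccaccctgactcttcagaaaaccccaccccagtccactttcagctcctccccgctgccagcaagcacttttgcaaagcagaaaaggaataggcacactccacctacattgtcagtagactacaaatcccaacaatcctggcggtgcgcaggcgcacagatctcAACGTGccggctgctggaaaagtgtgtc
Nr1d2, chr14:18239107-18239356, minus strand: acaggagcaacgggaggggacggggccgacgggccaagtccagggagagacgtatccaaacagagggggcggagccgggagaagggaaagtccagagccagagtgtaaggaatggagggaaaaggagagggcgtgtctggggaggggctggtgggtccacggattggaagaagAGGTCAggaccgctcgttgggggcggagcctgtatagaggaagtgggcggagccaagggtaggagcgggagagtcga
Nfil3, chr13:52981040-52981289, minus strand: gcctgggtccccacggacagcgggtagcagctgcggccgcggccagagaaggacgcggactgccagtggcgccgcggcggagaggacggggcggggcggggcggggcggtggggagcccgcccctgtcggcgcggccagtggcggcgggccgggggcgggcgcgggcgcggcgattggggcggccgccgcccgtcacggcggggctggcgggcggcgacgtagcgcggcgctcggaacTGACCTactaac
Tef, chr15:81802423-81802672, plus strand: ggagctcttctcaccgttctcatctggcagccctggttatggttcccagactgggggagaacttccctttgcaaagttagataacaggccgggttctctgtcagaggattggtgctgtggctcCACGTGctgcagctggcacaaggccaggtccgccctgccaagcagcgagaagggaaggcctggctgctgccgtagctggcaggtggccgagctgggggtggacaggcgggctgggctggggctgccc

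Nr1d1 held an E-box-like motif 28 bases before its start, Nr1d2 a ROR half-site at 77 bases, Nfil3 a ROR half-site at 12 bases, and Tef an E-box at 127 bases. In the table used, 8 of the 10 clock genes had at least 1 such window. An E-box was found in 3 of them (Bhlhe41, Per1 and Cry1), an E-box-like motif in 2 (Nr1d1 and Cry1), a ROR half-site in 3 (Nr1d2, Per1 and Clock), and a D-box (TTATGTAA, its complement TTACATAA, or TTACGTAA) in 0. Over all 32851 promoter windows of this length, 6.02% held the E-box, 3.85% the E-box-like motif, 14.0% the ROR half-site and 0.931% the D-box. The E-box and E-box-like motifs share 5 of 6 letters but no match was counted as both. A match is a description of the letters, not of a bound site.

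Levels are given as log2(intensity + 1) of the deposited intensities, and differences are on the same log2 scale with their standard errors, from 1 limma model over the 19 assigned arrays. A gene passed the test at a Benjamini-Hochberg adjusted p of 0.05 over the 12728 genes. Trem2, the deleted gene, read 6.75 to 7.60 in Trem2-/-5XFAD arrays, 11.45 to 11.80 in 5XFAD arrays, 6.84 to 7.02 in Trem2-/- arrays and 11.14 to 11.39 in WT arrays. The array labelled WT in its title and Trem2-/- in its genotype read 11.08 for Trem2 and entered no comparison. Microglial markers, of which 10 of 11 were on the array, averaged 10.65 to 11.43 in every assigned array and were lowest in 5XFAD, at 10.65 to 10.86. Some arrays stood apart. Xist, a transcript of the inactive X chromosome, exceeded 7 in 0 of 6 Trem2-/-5XFAD, 1 of 5 5XFAD, 3 of 4 Trem2-/- and 3 of 4 WT arrays, so sex and genotype were unbalanced. Klk1b22, a salivary gland transcript, exceeded 6 in 5XFAD arrays 1 and 2 and WT arrays 1 and 2 and in no array of the other two groups. Mucl2, another salivary transcript, exceeded 6 in the same 4 arrays and in Trem2-/- arrays 2 and 3 and WT array 4, so leaving out the 4 arrays with Klk1b22 does not clear the rest of salivary RNA. Differences in these subsets of arrays are given beside the results below, with the Mucl2 subset, which keeps 6 Trem2-/-5XFAD, 3 5XFAD, 2 Trem2-/- and 1 WT array, added after seeing the data.

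Bhlhe40 had the widest range of the 10 genes. It read 4.61, 4.44, 4.75, 4.98, 4.73 and 4.78 in the 6 Trem2-/-5XFAD arrays. It read 9.04, 8.27, 8.13, 8.72 and 8.19 in the 5 5XFAD arrays, against 4.24, 3.80, 4.13 and 3.86 in Trem2-/- arrays and 5.45, 3.89, 3.72 and 3.71 in WT arrays. Every 5XFAD array was far above every array of the other 3 genotypes, and 1 WT array stood above the rest of its group. In intensity units the group means were 25.4 in Trem2-/-5XFAD, 365 in 5XFAD, 15.2 in Trem2-/- and 20.2 in WT arrays. The signal lay at or below the 40th percentile of the array, 4.16 to 4.34, in 3 of 4 Trem2-/- and 3 of 4 WT arrays and in no transgenic array, so the fold against those groups is understated.

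Set against WT, Bhlhe40 rose in 5XFAD microglia by 4.28 ± 0.27 (SE; 5 and 4 arrays; 95% interval 3.72 to 4.84; limma adjusted p = 2.9e-10), a 19.4-fold difference on this scale. This comparison is part of one that chose the gene, the change with 5XFAD without Trem2 minus that with Trem2. Its p-value is therefore not independent of the choice. The difference was 4.63 without the 4 arrays with Klk1b22, with 3 5XFAD and 2 WT arrays left, and 4.63 without those with Mucl2, with 1 WT array left. It was 4.44 among arrays without Xist signal, 4 5XFAD against 1 WT. Levels without Xist signal ran from 8.13 to 8.72 in 5XFAD and stood at 3.89 in WT.

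Between the genotypes without Trem2, Bhlhe40 averaged 4.71 ± 0.18 in Trem2-/-5XFAD and 4.01 ± 0.21 in Trem2-/- microglia (SD, n = 6 and 4). The arrays did not overlap, the lowest Trem2-/-5XFAD array being 4.44 and the highest Trem2-/- array 4.24. Like 5XFAD against WT, this comparison is part of one that chose the gene, so its p-values are not independent of the choice. The difference of 0.71 ± 0.26 missed the threshold (limma adjusted p = 0.183). It passed in the same 10 arrays fitted alone (adjusted p = 0.0076) and without the Klk1b22 arrays (adjusted p = 0.0068), and missed without the Mucl2 arrays, at 0.67 (adjusted p = 0.103), and without Xist signal, at 0.86 (adjusted p = 0.111). It is a small difference near the low end of the scale. The difference between Trem2-/-5XFAD and 5XFAD, which drew attention to the gene, was -3.75 ± 0.24, with 3.15 between the nearest arrays of Trem2-/-5XFAD and 5XFAD. The change with 5XFAD was 3.57 smaller in mice without Trem2 than in mice with it.

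Bhlhe41, the close relative of Bhlhe40 that binds the same E-boxes, had a narrower range. It read 7.56 to 7.86 in Trem2-/-5XFAD, 7.84 to 8.08 in 5XFAD, 7.47 to 8.15 in Trem2-/- and 7.86 to 8.41 in WT arrays. All neighbouring groups in this order of levels overlapped, and the mean was lowest in Trem2-/-5XFAD at 7.75 and highest in WT at 8.22. The difference of -0.25 ± 0.13 for 5XFAD against WT missed the threshold (limma adjusted p = 0.231, 95% interval -0.52 to 0.02). Within genotypes the pair ran in opposite directions: deviations of the arrays from their group means had a Pearson r of -0.67 between Bhlhe40 and Bhlhe41 over 19 arrays, and -0.55 without the 2 arrays farthest from the median of Bhlhe40.

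**Figure D1:**
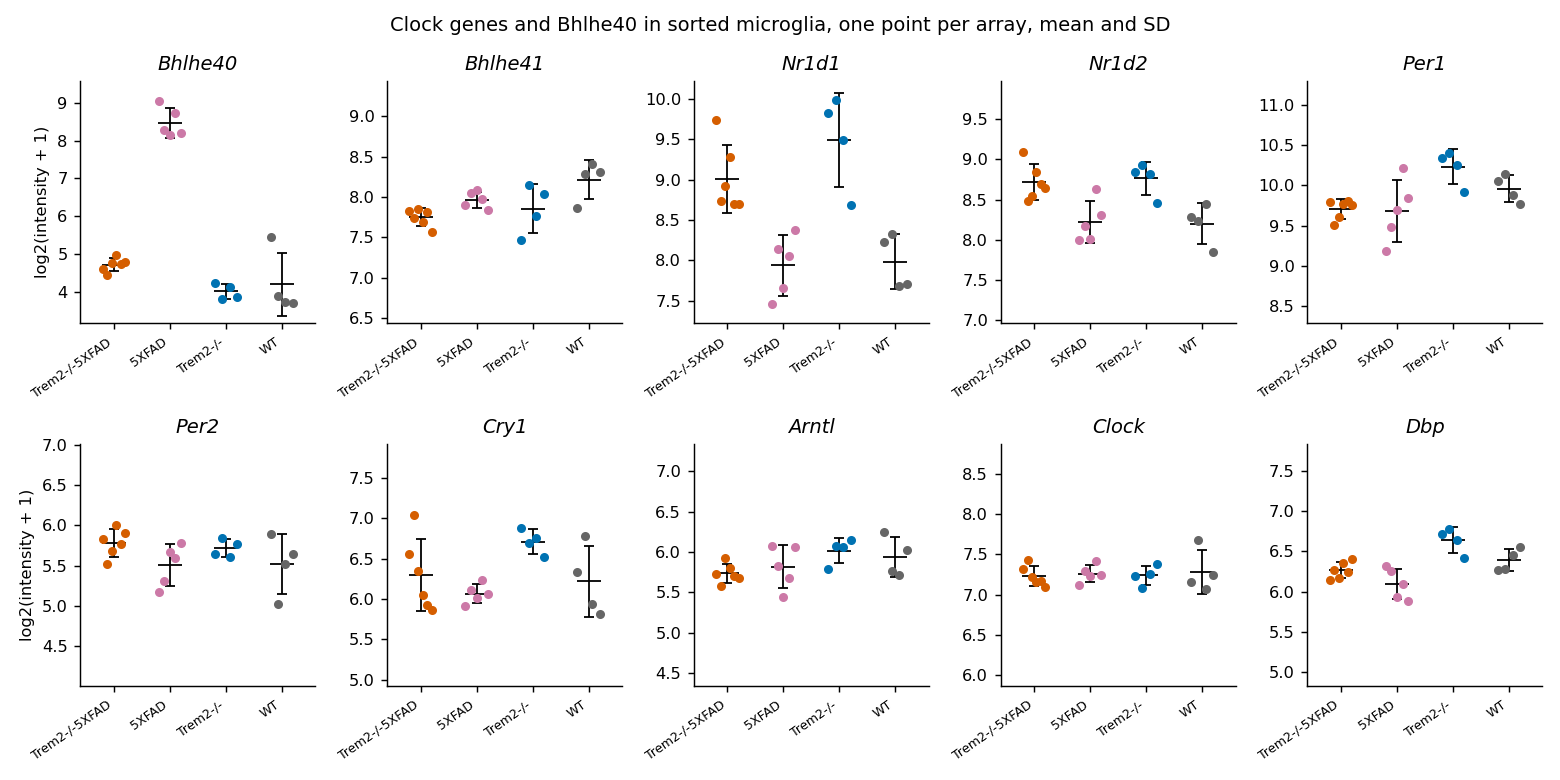
Levels of the 10 clock genes, as log2(intensity + 1) on the vertical axis, in Trem2-/-5XFAD, 5XFAD, Trem2-/- and WT microglia, with 1 point per array and bars for the mean and SD. Bhlhe40 stands at 8.13 to 9.04 in 5XFAD and at or below 5.45 elsewhere, and Nr1d1 stands at 8.68 or above in both genotypes without Trem2 and at 8.38 or below in both genotypes with it.

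Nr1d1 was higher in both genotypes without Trem2 than in both genotypes with it. It read 9.74, 8.73, 8.93, 9.28, 8.70 and 8.70 in Trem2-/-5XFAD arrays, against 7.45, 8.14, 7.65, 8.05 and 8.38 in 5XFAD arrays. It read 9.82, 9.99, 9.49 and 8.68 in Trem2-/- arrays, against 8.23, 8.32, 7.68 and 7.71 in WT arrays. No array without Trem2 reached down to an array with Trem2. The mean difference was 1.08 ± 0.23 between Trem2-/-5XFAD and 5XFAD and 1.51 ± 0.27 between Trem2-/- and WT. In intensity units the means were 535 in Trem2-/-5XFAD and 250 in 5XFAD, and 763 in Trem2-/- and 257 in WT.

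The size of the Nr1d1 difference in mice without transgenes depended on which arrays were set against each other. Among arrays with Xist signal it was 1.90, with 9.49 to 9.99 in 3 Trem2-/- and 7.68 to 8.23 in 3 WT arrays. Without Xist signal 1 array of each genotype remained, and these read 8.68 in Trem2-/- and 8.32 in WT, a difference of 0.36. In transgenic mice without Xist signal Nr1d1 ran from 8.70 to 9.74 in 6 Trem2-/-5XFAD arrays and from 7.65 to 8.38 in 4 5XFAD arrays, a difference of 0.96 with no overlap. Without the Klk1b22 arrays the differences were 0.99 for Trem2-/-5XFAD against 5XFAD and 1.80 for Trem2-/- against WT, and without the Mucl2 arrays they were 0.99 and 1.58. The array with conflicting labels read 7.57, below every WT array.

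Mean levels of marker lists of other cells differed beside Nr1d1, though not every marker did. The mean level of 10 neutrophil markers per array, 7 of them past the filter on low values and Ltf, Ly6g and Cxcr2 not, was 4.42 to 6.07 in Trem2-/-5XFAD and 4.04 to 4.96 in 5XFAD arrays. It was 4.33 to 5.82 in Trem2-/- and 3.79 to 4.29 in WT arrays. The neutrophil markers were uneven. S100a8 averaged 7.77 in Trem2-/- and 4.84 in WT, and S100a9 8.01 and 5.68. Elane averaged 4.60 in both, while Mpo, at 4.21 and 4.39, and Cxcr2, at 2.84 and 3.03, were lower in Trem2-/-. Of the 7 tested, 0 passed in limma in Trem2-/-5XFAD against 5XFAD and 0 in Trem2-/- against WT. The mean of 8 border macrophage markers was 6.53 to 7.22 in Trem2-/-5XFAD and 5.40 to 6.16 in 5XFAD, and 6.64 to 7.83 in Trem2-/- and 6.34 to 7.15 in WT arrays. Of these 8, 7 passed higher and 0 lower in limma in Trem2-/-5XFAD against 5XFAD, beside 3.21% and 4.46% of all genes tested. In Trem2-/- against WT 1 passed higher and 0 lower, beside 0.385% and 0.228%. With the neutrophil level as a covariate the Nr1d1 difference was 0.92 for Trem2-/-5XFAD against 5XFAD and 1.31 for Trem2-/- against WT, and the part of the border macrophage markers was not tested. Thra, whose gene overlaps the end of Nr1d1 on the opposite strand, averaged 6.09 in Trem2-/-5XFAD and 5.71 in 5XFAD, and 6.06 in Trem2-/- and 5.64 in WT, and neither difference passed (limma adjusted p = 0.177 and 0.345).

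Nr1d1 passed the test in neither comparison of mice with and without transgenes. It averaged 7.94 ± 0.38 in 5XFAD and 7.98 ± 0.34 in WT (SD, n = 5 and 4), a difference of -0.05 ± 0.26 (limma adjusted p = 0.934, 95% interval -0.59 to 0.49). It averaged 9.01 ± 0.42 in Trem2-/-5XFAD and 9.50 ± 0.58 in Trem2-/- (SD, n = 6 and 4), a difference of -0.49 ± 0.25 (limma adjusted p = 0.387). Without the Klk1b22 arrays the first of these turned to 0.33, and among arrays without Xist signal the second turned to 0.33, with 1 Trem2-/- array.

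Nr1d2, the paralogous receptor, was also higher on average in both genotypes without Trem2, by less. It read 9.09, 8.49, 8.54, 8.84, 8.69 and 8.65 in Trem2-/-5XFAD, against 8.001, 8.17, 8.01, 8.63 and 8.31 in 5XFAD arrays. It read 8.84, 8.93, 8.82 and 8.46 in Trem2-/-, against 8.29, 8.23, 8.44 and 7.85 in WT arrays. The transgenic groups overlapped and the others were apart by 0.02. The mean differences were 0.49 ± 0.14 between Trem2-/-5XFAD and 5XFAD and 0.56 ± 0.16 between Trem2-/- and WT, and its mean differed by 0.02 ± 0.15 between 5XFAD and WT (limma adjusted p = 0.953). The difference between Trem2-/- and WT was 0.23 among arrays without Xist signal and 0.21 without the Mucl2 arrays.

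**Figure D2:**
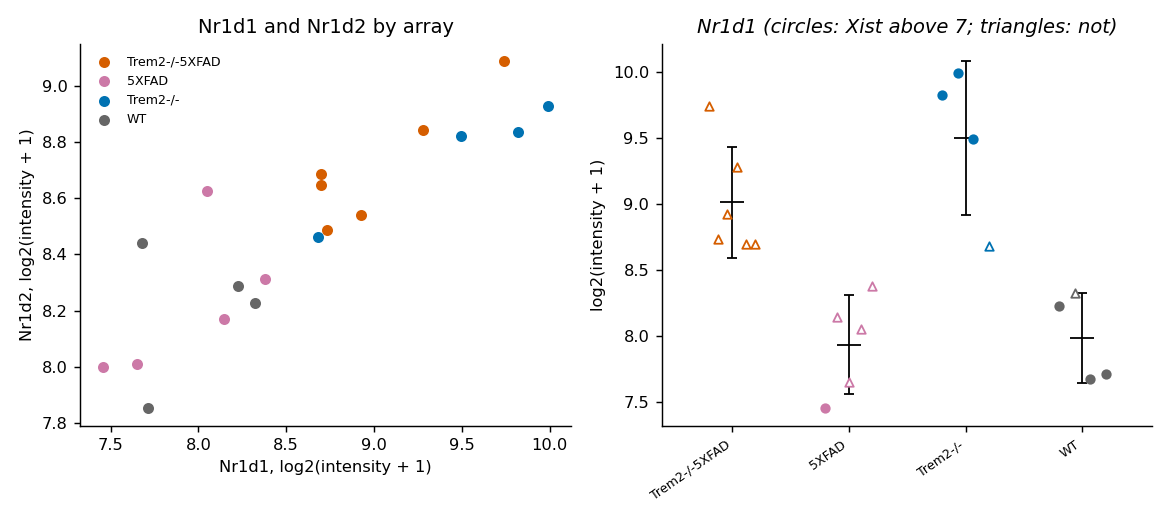
Left, Nr1d1 (horizontal axis) and Nr1d2 (vertical axis) in each of the 19 arrays, both as log2(intensity + 1), coloured by genotype. Right, Nr1d1 by genotype with mean and SD, with filled circles for arrays with Xist above 7 and open triangles for the others; the Trem2-/- array without Xist signal reads 8.68 and the other 3 read 9.49 to 9.99.

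Among arrays of one genotype, Nr1d1 ran together with Nr1d2 and Per1. Deviations from group means correlated with Pearson r 0.70 (Spearman rho 0.64) between Nr1d1 and Nr1d2 and r 0.61 (rho 0.66) between Nr1d1 and Per1, over 19 arrays that share a platform and a scaling. Without the 2 arrays farthest from the median these were 0.56 and 0.57. With Per3, a period gene outside the 10, r was 0.57, or 0.38 without those arrays. With Cry1 r was 0.41 (rho 0.57), or 0.35. With Arntl r was 0.04, with Clock 0.13, and with Dbp -0.07, and without those arrays 0.16, 0.25 and -0.25. With Bhlhe40 r was 0.10. The receptor pair and Per1 thus varied together in the pooled deviations, and the r of Nr1d1 with Arntl, Clock and Dbp was lower. No r was computed within a single genotype. Trem2-/- array 4, the only array of its group without Xist signal, was the lowest of that group in Nr1d1, Nr1d2 and Per1.

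Of the period and cryptochrome genes, Per1 was higher in every Trem2-/- array than in every Trem2-/-5XFAD array. It read 9.79, 9.50, 9.61, 9.76, 9.81 and 9.76 in Trem2-/-5XFAD, against 10.34, 10.41, 10.25 and 9.92 in Trem2-/-. The difference of -0.52 ± 0.15 missed the threshold (limma adjusted p = 0.0808). It passed in 4 of 17 other settings, among them the same 10 arrays fitted alone (adjusted p = 0.0276). With 1 array left out it passed in 3 of 19 settings. Among arrays without Xist signal, which leave 1 Trem2-/- array, it was -0.21, and without the Mucl2 arrays it was -0.42 (adjusted p = 0.265). In mice with Trem2, Per1 read 9.18, 9.49, 9.69, 10.21 and 9.84 in 5XFAD, against 10.05, 10.14, 9.87 and 9.77 in WT arrays. These groups overlapped, and the difference was -0.28 ± 0.16 (limma adjusted p = 0.275, 95% interval -0.61 to 0.05), or 0.09 without the Klk1b22 arrays and -0.72 with 1 5XFAD and 3 WT arrays with Xist signal. The Trem2-/- minus WT difference of 0.27 ± 0.17 had opposite signs with and without Xist signal: it was 0.43 in arrays with it and -0.22 in the single arrays without it.

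Per2 stayed within 5.52 to 6.01 in Trem2-/-5XFAD, 5.17 to 5.78 in 5XFAD, 5.60 to 5.85 in Trem2-/- and 5.02 to 5.90 in WT arrays. All 4 ranges overlapped. The transgene differences were -0.02 in mice with Trem2 and 0.07 in mice without it, and neither passed (limma adjusted p = 0.965 and 0.890). The first was -0.52 in arrays with Xist signal and 0.57 in arrays without it, where a group has 1 array. Cry1, whose protein represses CLOCK and ARNTL together with the period proteins, ran from 5.87 to 7.04 in Trem2-/-5XFAD, from 5.91 to 6.23 in 5XFAD, from 6.52 to 6.89 in Trem2-/- and from 5.81 to 6.78 in WT arrays. Its differences were -0.15 ± 0.21 for 5XFAD against WT and -0.42 ± 0.20 for Trem2-/-5XFAD against Trem2-/- (limma adjusted p = 0.704 and 0.348). The first turned to 0.23 without the Klk1b22 arrays and was -0.67 without Xist signal, where the second was -0.22. Like Per1, its Trem2-/- minus WT difference of 0.49 was 0.75 in arrays with Xist signal and -0.26 in those without.

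The 4 genotypes overlapped in both activators. Arntl averaged 5.74 ± 0.12 in Trem2-/-5XFAD, 5.82 ± 0.27 in 5XFAD, 6.02 ± 0.16 in Trem2-/- and 5.94 ± 0.25 in WT (SD, n = 6, 5, 4 and 4). Clock averaged 7.23 ± 0.12 in Trem2-/-5XFAD, 7.26 ± 0.11 in 5XFAD, 7.24 ± 0.12 in Trem2-/- and 7.28 ± 0.27 in WT. With the transgenes Arntl differed by -0.12 ± 0.14 in mice with Trem2 and by -0.28 ± 0.13 in mice without it (limma adjusted p = 0.640 and 0.337), and Clock by -0.02 and -0.01 (adjusted p = 0.928 and 0.990). In 5XFAD against WT Clock ranged from -0.38 without Xist signal to 0.23 without the Mucl2 arrays, each with 1 WT array. For Arntl, which NR1D1 represses, the Trem2 differences were -0.08 ± 0.12 between Trem2-/-5XFAD and 5XFAD and 0.08 ± 0.14 between Trem2-/- and WT, beside the higher Nr1d1 of both genotypes without Trem2.

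Dbp, the output activator driven by E-boxes, read 6.15 to 6.40 in Trem2-/-5XFAD, 5.89 to 6.31 in 5XFAD, 6.42 to 6.78 in Trem2-/- and 6.27 to 6.55 in WT arrays. The Trem2-/-5XFAD and Trem2-/- arrays did not overlap, but by a gap of 0.02. Neither transgene difference passed the test: it was -0.29 ± 0.11 for 5XFAD against WT (limma adjusted p = 0.0839) and -0.38 ± 0.11 for Trem2-/-5XFAD against Trem2-/- (limma adjusted p = 0.0718). Without the Klk1b22 arrays the first was -0.53 (adjusted p = 0.0168) and the second -0.38 (adjusted p = 0.0421). Without the Mucl2 arrays neither passed, at -0.48 and -0.30. The first was -0.11 in arrays with Xist signal, where the groups overlapped, and -0.24 in arrays without it, and the second was -0.16 without Xist signal.

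Counted over the 10 genes, 1 rose and 0 fell in 5XFAD against WT, where 15.0% of all genes tested passed, 8.23% higher and 6.77% lower. The gene that rose was Bhlhe40, whose choice was not independent of this comparison. The median difference of the 10 genes was -0.08, against -0.02 over all genes tested. In Trem2-/-5XFAD against Trem2-/-, 0 of 10 passed in limma, where 2.18% of all genes did, 1.63% higher and 0.558% lower. An unadjusted limma p under 0.05 was found for 5 of 10, Bhlhe40 among them. The share of all genes at that unadjusted cut was not counted, so the 5 cannot be set beside the 2.18%. The median of the 10 genes there was -0.19, against 0.02 over all genes. The groups did not overlap for Bhlhe40, Per1 and Dbp, 3 of 10, where 6.01% of all genes tested did not overlap. In 5XFAD against WT the groups did not overlap for Bhlhe40, 1 of 10, beside 13.4% of all genes.

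For the comparisons that chose the genes the counts stand as a description. In Trem2-/-5XFAD against 5XFAD, 3 of the 10 were past the threshold, Nr1d1 and Nr1d2 higher and Bhlhe40 lower, where 7.68% of all genes tested were past it, 3.21% higher and 4.46% lower. In Trem2-/- against WT it was 1 of 10, Nr1d1, where 0.613% of all genes were past it, 0.385% higher and 0.228% lower. In the interaction, the change with 5XFAD without Trem2 minus that with Trem2, it was 1 of 10, Bhlhe40, where 2.60% were past it, 1.02% higher and 1.58% lower. Next after Nr1d1 in Trem2-/- against WT, and not past the threshold, stood Nr1d2, at 0.56 ± 0.16. The groups did not overlap for Bhlhe40 and Nr1d1 in Trem2-/-5XFAD against 5XFAD and for Nr1d1 and Nr1d2 in Trem2-/- against WT, 2 of 10 each, beside 7.14% of all genes for Trem2-/-5XFAD against 5XFAD and 5.79% for Trem2-/- against WT.

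**Figure D3:**
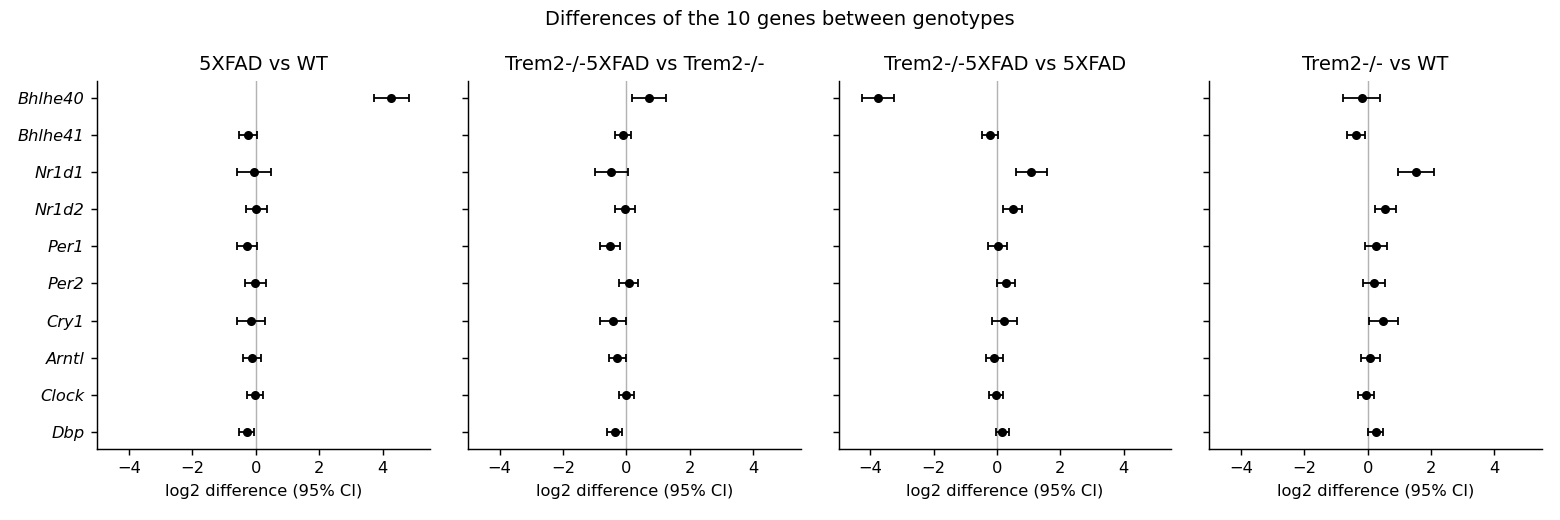
Differences of the 10 genes between genotypes on the log2 scale, with 95% intervals from limma, for 5XFAD against WT, Trem2-/-5XFAD against Trem2-/-, Trem2-/-5XFAD against 5XFAD and Trem2-/- against WT. Bhlhe40 stands at 4.28 in the first panel and -3.75 in the third, Nr1d1 at 1.08 in the third and 1.51 in the fourth, and the intervals of Clock cover 0 in all 4.

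The genes whose pattern was most like Bhlhe40 over the 19 arrays were Flt1, a VEGF receptor, with Pearson r 0.97 (Spearman rho 0.68), Mamdc2 (0.97, rho 0.71), Etl4 (0.97, rho 0.86), Gas7 (0.97, rho 0.84) and Tcap (0.96, rho 0.81). These correlations reflect group levels that stand apart. Flt1 read 3.85 to 4.38 in Trem2-/-5XFAD, 6.73 to 7.50 in 5XFAD, 3.69 to 4.25 in Trem2-/- and 3.93 to 4.38 in WT arrays. Flt1 is also a vascular marker, and the mean of 8 vascular markers including it was 4.21 to 4.38 in Trem2-/-5XFAD, 4.37 to 4.64 in 5XFAD, 4.12 to 4.41 in Trem2-/- and 4.20 to 4.52 in WT, with Cldn5, Pdgfrb, Rgs5 and Vtn below the filter. Without Flt1 the mean of the other 7 was 4.24 to 4.40 in Trem2-/-5XFAD, 3.97 to 4.29 in 5XFAD, 4.18 to 4.44 in Trem2-/- and 4.24 to 4.54 in WT, and Pecam1, an endothelial adhesion molecule, averaged 4.87 in 5XFAD and 6.50 in WT. The mean of 7 astrocyte markers, with Aqp4 and Aldh1l1 below the filter, was 5.17 to 5.42 in Trem2-/-5XFAD, 5.46 to 5.91 in 5XFAD, 4.77 to 5.12 in Trem2-/- and 5.11 to 5.30 in WT, and its part in the Bhlhe40 difference was not tested. The genes least like it were Mtss1, which acts on membranes and actin (r -0.98), Ecscr (-0.96) and Dock10 (-0.96). Mtss1 read 7.68 to 7.94 in Trem2-/-5XFAD, 6.52 to 6.94 in 5XFAD, 8.09 to 8.21 in Trem2-/- and 7.78 to 8.44 in WT arrays.

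Within genotypes the deviations of Bhlhe40 correlated highest with those of Prkag2, a subunit of AMP-activated kinase (r 0.91), Erg (0.88), Cdk5 (0.85), Gpr31b (0.80) and Inpp5k (0.79), and lowest with Sgce (-0.90), Mrps31 (-0.88) and Tsc2 (-0.82). Without the 2 arrays farthest from the median the first 4 dropped to 0.76, 0.73, 0.58 and 0.43, and none of the 5 was among the genes most like Bhlhe40 across genotypes.

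For Nr1d1 the most similar gene tested over the 19 arrays was Nr1d2 (r 0.88, rho 0.87), followed by Emp3 (0.87), Wsb1 (0.86), Fcna (0.86) and Brd2 (0.85). Wsb1 read 10.45 to 10.72 in Trem2-/-5XFAD and 9.79 to 10.31 in 5XFAD, and 10.57 to 10.73 in Trem2-/- and 9.87 to 10.31 in WT arrays. Brd2, a bromodomain reader of acetylated histones, read 9.80 to 10.11 in Trem2-/-5XFAD and 9.24 to 9.67 in 5XFAD, and 10.10 to 10.26 in Trem2-/- and 9.29 to 9.88 in WT. In both genes the arrays without Trem2 did not overlap those with Trem2, in transgenic and in other mice. Least similar were G530011O06Rik (r -0.87), Mid1 (-0.84) and Trem2 itself (-0.82). G530011O06Rik averaged 5.59 in Trem2-/-5XFAD and 10.33 in 5XFAD, and 4.28 in Trem2-/- and 11.13 in WT. Mid1 averaged 6.63 and 9.35, and 6.32 and 9.63, in the same order. The genotypes without Trem2 thus differed widely from those with it at genes other than Trem2. Whether the Nr1d1 difference goes with Trem2 or with such other differences was not tested. Within genotypes the highest were Fcna (0.79), Plekha7 (0.77), Focad (0.76), Clcf1 (0.76) and Tmod3 (0.74), and the lowest Rassf7 (-0.80), Polr2g (-0.79) and Coq2 (-0.76).

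Beyond the 10 genes, 40 further clock genes were listed, of which 35 were on the array with a single-gene probe set and 31 were tested; the list was drawn up with earlier results of these data known. In 5XFAD against WT, 5 of the 31 rose and 5 fell, beside 8.23% and 6.77% of all genes tested, with a median difference of -0.05. The D-box factors moved in opposite directions. Nfil3, the D-box repressor, read 8.16, 8.39, 8.80, 8.08 and 8.09 in 5XFAD, against 6.45, 6.56, 6.36 and 6.32 in WT arrays. It rose by 1.88 ± 0.20 (limma adjusted p = 7.5e-07). The D-box activator Hlf read 5.28 to 5.94 in 5XFAD, against 6.43 to 6.72 in WT, and fell by 1.07 on the log2 scale (SE 0.18, limma adjusted p = 3.0e-04). Its relative Tef read 5.29 to 5.73 in 5XFAD, against 5.98 to 6.34 in WT, and fell by 0.63 (SE 0.11, limma adjusted p = 3.1e-04). None of these groups overlapped, and the third D-box activator, Dbp, is described above.

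Among the genes that clock factors regulate, Nampt, the rate-limiting enzyme of NAD salvage, rose by 0.72 ± 0.13 in 5XFAD against WT (limma adjusted p = 6.5e-04). Nlrp3, the inflammasome sensor that NR1D1 is known to repress, rose by 0.77 ± 0.13 (limma adjusted p = 2.3e-04). Alas1, the first enzyme of haem synthesis, rose by 0.44 ± 0.10, and the deubiquitinase Usp2 fell by 0.44 (SE 0.09), with limma adjusted p of 0.0038 and 0.0019. Among regulators, the PER kinase Csnk1e fell by 0.42, Wdr5 fell by 0.51 and the cryptochrome ligase subunit Fbxl21 rose by 0.80 (limma adjusted p = 0.0062, 0.035 and 0.0081). The Wdr5 groups overlapped, and its call held in 25 of 37 other settings, with differences from -1.09 to 0.09. Fbxl21 averaged 4.50 in 5XFAD and 3.70 in WT, near the low end of the scale. Cry2, Per3, Rora and Ciart did not pass the test in any comparison. Ciart has 2 probe sets, of which the brighter stood for it.

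Without Trem2, 1 of the 31 genes passed with the transgenes, beside 2.18% of all genes tested. This was Hlf, which read 5.38 to 6.11 in Trem2-/-5XFAD and 6.39 to 7.32 in Trem2-/- arrays and fell by 0.99 (SE 0.18, limma adjusted p = 0.0031). Nfil3 read 6.86, 7.30, 7.29, 6.91, 6.89 and 6.86 in Trem2-/-5XFAD, against 7.55, 7.22, 7.13 and 6.24 in Trem2-/- arrays, a difference of -0.02. The change with 5XFAD was smaller without Trem2 for Nfil3 by 1.90 ± 0.28 (limma adjusted p = 3.8e-04) and for Nlrp3 by 0.84 ± 0.18 (adjusted p = 0.010), and for Tef it was 0.65 ± 0.15 less negative (adjusted p = 0.023). These are 3 of 31 genes, beside the 2.60% of all genes given above. Over 35 other settings the call held in 33 for Nfil3, 33 for Nlrp3 and 28 for Tef. That of Tef was lost with a replicate block and without the Klk1b22 arrays, among others.

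Set directly against 5XFAD, Trem2-/-5XFAD microglia had 3 higher and 3 lower of the 31 genes, beside 3.21% and 4.46% of all genes tested. Nfil3 fell by 1.29 on the log2 scale (SE 0.18, limma adjusted p = 5.8e-05), Nampt by 0.42 (SE 0.12, adjusted p = 0.036) and Alas1 by 0.33 (SE 0.09, adjusted p = 0.025). The Nampt and Alas1 calls each held in 24 of 36 other settings. Tef rose by 0.53 ± 0.10 (adjusted p = 0.0013), Usp2 by 0.47 ± 0.08 (adjusted p = 8.3e-04) and Klf11 by 0.50 ± 0.12 (adjusted p = 0.011). Usp2 read 8.70 to 8.88 in Trem2-/-5XFAD, against 8.10 to 8.41 in 5XFAD, and 8.81 to 8.95 in Trem2-/-, against 8.69 to 8.94 in WT arrays. Without the Klk1b22 arrays 3 of the 31 passed, and Nampt, Alas1 and Klf11 did not. Of the 31, only Nlrp3 passed in Trem2-/- against WT, beside 0.613% of all genes tested. It read 10.13 to 10.41 in Trem2-/- and 9.24 to 9.87 in WT, and rose by 0.77 ± 0.14 (limma adjusted p = 0.0094); the array with conflicting labels read 10.35, and with that array in WT the call was lost. It was also lost with the neutrophil covariate, in the groups fitted alone and in arrays with or without Xist signal, 5 of 37 settings in all, and the neutrophil marker levels given above were 4.33 to 5.82 in Trem2-/- and 3.79 to 4.29 in WT.

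**Figure D4:**
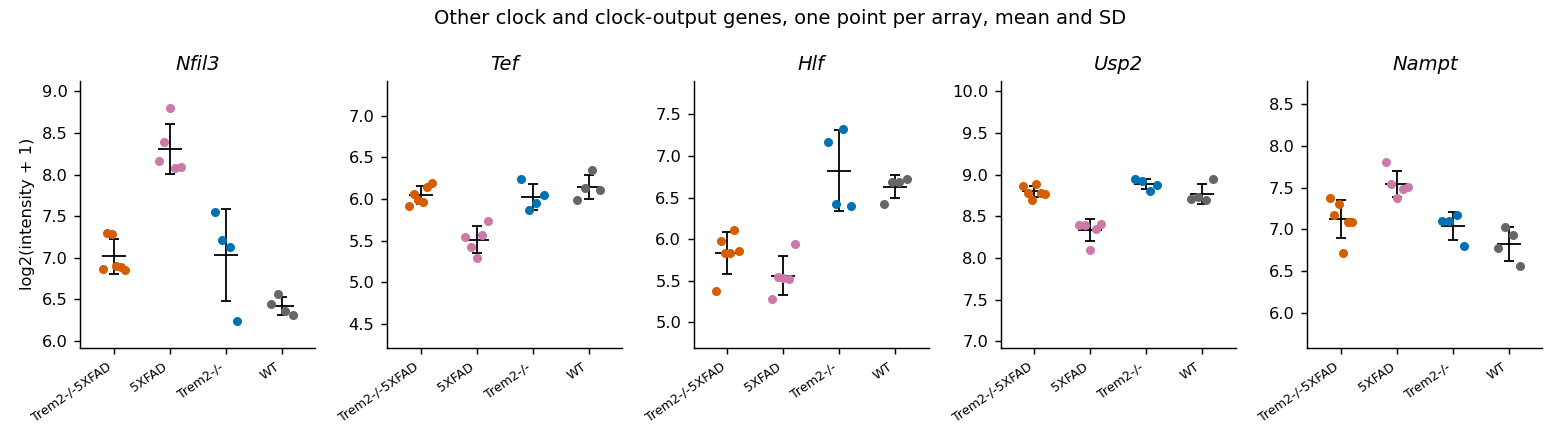
Levels of Nfil3, Tef, Hlf, Usp2 and Nampt, as log2(intensity + 1) on the vertical axis, in Trem2-/-5XFAD, 5XFAD, Trem2-/- and WT microglia, with 1 point per array and bars for the mean and SD. Nfil3 reads 8.08 to 8.80 in 5XFAD and at most 7.55 elsewhere, Tef and Usp2 are lowest in 5XFAD, and Hlf is lower in both transgenic genotypes.

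Some of these transcripts also respond to oxygen, glucocorticoids and cell handling, so lists of genes known for those responses were set beside them. Of 13 tested genes raised by low oxygen, 7 rose and 0 fell in 5XFAD against WT, beside 8.23% and 6.77% of all genes tested, with a median of 0.45. Egln3, an oxygen-sensing hydroxylase, averaged 7.94 in 5XFAD and 3.56 in WT and rose by 4.39 ± 0.32 (limma adjusted p = 2.3e-09), and Vegfa rose by 1.52 ± 0.18 (adjusted p = 3.8e-06). Egln3 read at most 3.96 in WT and 4.11 in Trem2-/- arrays, below the 40th percentile of every array. It passed the filter only through transgenic arrays, where it was higher, so its p-values are not independent of the filter. In Trem2-/-5XFAD against 5XFAD, 4 of 13 fell and 0 rose, beside 4.46% and 3.21% of all genes tested, with Egln3 at -3.06 ± 0.28 (adjusted p = 2.6e-07) and Vegfa at -1.49 ± 0.16 (adjusted p = 2.5e-06). Both genes had their highest mean levels in the genotype where Bhlhe40 was highest. Whether low oxygen had a part in the Bhlhe40 difference was not tested.

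Glucocorticoid is the adrenal hormone that entrains peripheral clocks. Of 11 tested genes of a glucocorticoid list, 1 rose (Mt2) and 3 fell (Sesn1, Tsc22d3 and Nr3c1) in 5XFAD against WT. These are to be set beside the same 8.23% and 6.77%. Nr3c1 is the receptor of the hormone, so its fall is not counted as that of a target. In Trem2-/- against WT 0 of 11 passed in limma, beside 0.613% of all genes tested, with 2 at an unadjusted p under 0.05. Fkbp5, a common marker of glucocorticoid action, differed there by 0.90 ± 0.39 (limma adjusted p = 0.337). Of 21 immediate early genes, 3 rose and 9 fell in 5XFAD against WT, beside those shares, led by Nr4a3, which rose by 1.80 ± 0.18 (adjusted p = 2.3e-07), and Klf2, which fell by 1.01 (SE 0.12, adjusted p = 2.7e-06). In Trem2-/- against WT 0 of 21 passed in limma, beside the same 0.613%, with 3 at an unadjusted p under 0.05. The share of all genes at that unadjusted cut was not counted. The mean level of the 21 genes, which rise with cell dissociation, was 10.07 to 10.17 in Trem2-/- and 9.87 to 10.21 in WT arrays, and the ranges overlapped.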

How the data were processed

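Total RNA of flow-sorted mouse microglia was hybridised to 20 one-colour arrays, from 2 ng of RNA per the labels' protocols. The authors deposited linear intensity values for 24679 probe sets. The sources used here do not state their summary method or normalization. Their medians, 25.7 to 28.6 per array, show a common scale. The platform annotation named 1 gene for 21354 probe sets, several for 1275, and did not name 2050. The probe set with the highest mean stood for a gene; each of the 10 clock genes had 1.

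Values were taken as log2(intensity + 1), which understates folds at low signal. The filter kept 12728 genes with values above the 40th percentile of 4 or more of the 19 assigned arrays. limma 3.58.1 in R 4.3.3 fitted 1 model over the 4 genotypes, with Benjamini-Hochberg adjustment, in 5 comparisons. The procedure was tested on simulated data. One array with conflicting labels entered no comparison. The labels do not say how separate the samples of a group are, beyond littermates, so the spread behind each p-value is that of arrays, whose number limits the precision.

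The clock genes, the other lists and the tests were chosen with earlier results of these data known. Named beyond the 10 genes were listed clock genes past the threshold, the 5 genes most and 3 least correlated with Bhlhe40 and Nr1d1, and leading genes of companion lists. Alternatives covered pseudocount, filter, scaling, covariates, array sets and leaving out each array.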

Additional observations from a re-analysis of the deposited data

Results flagged for a closer look

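A single array's gap to the nearest of its group, divided by the group's range, was above Dixon's 95% critical value in 3 of the 68 combinations of 17 clock genes and 4 genotypes. Chance alone does this in about 1 in 20 groups. Bhlhe40 read 5.45 in WT array 1, while the other 3 WT arrays read 3.71 to 3.89; this array also carried Klk1b22. Cry2 read 5.42 in Trem2-/- and the other 3 arrays there read 5.85 to 5.90. Hlf read 6.43 in WT array 1 and 6.68 to 6.72 in the other 3 WT arrays.

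The difference with 5XFAD was unequal in mice without and with Trem2 for 3 of the 17 clock genes screened, beside 2.60% of all genes tested. Bhlhe40 differed by 0.71 without Trem2 and by 4.28 with it, a difference of -3.57, given as a description because this contrast chose the gene. Nfil3 differed by -0.02 without Trem2 and by 1.88 with it, a difference of -1.90. Tef differed by 0.02 without Trem2 and by -0.63 with it, a difference of 0.65 whose call held in 28 of 35 other settings.

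In the array with conflicting labels, which entered no comparison, Per1 read 10.29, above the WT range of 9.77 to 10.14. This screen of the 10 genes took only values above the WT range. The same array read below every WT array in Nr1d1, at 7.57 against a lowest WT value of 7.68. It did so in Dbp too, at 6.248 against 6.271.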

How the results depend on the processing

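Results were recomputed under 37 other settings, 19 of which left out 1 array each. The difference of Bhlhe40 between 5XFAD and WT was 3.43 to 4.74 across them, where some array subsets left 1 WT or 1 5XFAD array. These settings refit arrays that chose the gene, so they are a description and no independent support. With a pseudocount of 16 the Bhlhe40 difference between Trem2-/-5XFAD and 5XFAD was -3.16. The Nr1d1 difference between Trem2-/- and WT was 0.36 in arrays without Xist signal, and 1.35 to 1.79 when single arrays were left out. No called value of the 10 genes changed sign. Without the arrays with Mucl2, a setting added after seeing the data, the number of the 10 genes past the threshold was 0 in Trem2-/- against WT and 1 in Trem2-/-5XFAD against 5XFAD, and that of the other clock genes was 4 in 5XFAD against WT, 5 in Trem2-/- against WT, 3 in Trem2-/-5XFAD against 5XFAD and 2 in Trem2-/-5XFAD against Trem2-/-.

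The number of the 10 genes past the threshold in 5XFAD against WT was 2 under quantile normalization and without Klk1b22 arrays, and 1 to 2 with single arrays left out (2 without 5XFAD array 1). Over all genes 2035, 1443 and 1684 passed there, in that order, against 1909 in the main fit. In Trem2-/- against WT it was 0 with those groups alone, with the conflicting array in Trem2-/- and with the neutrophil covariate. It was 0 to 1 with single arrays left out (0 without Trem2-/- array 1). Over all genes 11, 62, 26 and 30 passed there, in that order, against 78 in the main fit. In Trem2-/-5XFAD against Trem2-/- it was 2 with those groups alone and with array weights, 1 with the conflicting array in Trem2-/- and 3 without Klk1b22 arrays. Over all genes 348, 507, 362 and 411 passed there, in that order, against 278 in the main fit. With single arrays left out it was 0 to 2 of the 10 genes (2 without Trem2-/- array 4, 1 without WT array 1, 5XFAD array 1 or 5XFAD array 4). Over all genes 270, 308, 283 and 266 passed without those arrays, in that order.

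Of the other clock genes, 5 passed in 5XFAD against WT without Xist signal and 2 in arrays with it, a setting added after seeing the data. In Trem2-/- against WT, 0 passed with those groups alone, with the conflicting array in WT, in arrays with Xist signal and with the neutrophil covariate. Over all genes 11, 26, 10 and 26 passed there, in that order. Of the other clock genes, 4 passed without Klk1b22 arrays, 2 with Klk1b22 as a covariate, and 1 to 2 with single arrays left out (2 without WT array 2 or Trem2-/- array 4). Over all genes 271, 114, 159 and 46 passed there, in that order, against 78 in the main fit. In Trem2-/-5XFAD against 5XFAD 3 passed without Klk1b22 arrays, against Trem2-/- 2 did, and 0 without Xist signal. The interaction had 0 without Xist signal. Fewer arrays entered these subsets; otherwise the cause was not tested.

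Same-numbered deviations correlated at 0.09 to 0.17 in 5XFAD against WT, where Klk1b22 fell on arrays 1 and 2 of both groups, and at -0.08 to 0.10 in the other comparisons. Not every pair exceeded 0.1, so array numbers were not taken to pair the arrays. With a replicate block 1786 genes passed in 5XFAD against WT (1909 without it), 183 in Trem2-/-5XFAD against Trem2-/- (278), 753 in Trem2-/-5XFAD against 5XFAD (977) and 38 in Trem2-/- against WT (78), and the counts over the 10 genes were 1, 0, 2 and 1, against 1, 0, 3 and 1 without it. Over all genes in Trem2-/- against WT, between 10 and 271 passed across the settings. The counts over all genes without Klk1b22 arrays were 1443 in 5XFAD against WT and 411 in Trem2-/-5XFAD against Trem2-/-. They were 579 in Trem2-/-5XFAD against 5XFAD and 271 in Trem2-/- against WT. Counts of clock genes in that setting are to be set beside these. Depth per array is unknown, and Bhlhe40 near background limits its fold.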
